A study of Homo sapiens with 6 samples.

Results

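The mitochondrial ribosomal proteins, encoded in the nucleus by genes named MRPL for the large subunit and MRPS for the small one, were examined in K562 cells with and without a mutant splicing factor. Members were all rows of the deposited expression tables whose gene ID belongs to a protein-coding gene with the symbol MRPL or MRPS followed by digits. That rule used no measured value, but the family was chosen with earlier results of these data known. The rule gave 78 of 62111 listed genes. K562 is an established human erythroleukaemia cell line. The study sequenced mRNA libraries of K562 cells labelled SF3B1-wt (3 libraries, WT below) and of K562 cells labelled SF3B1-K700E (3 libraries, K700E below), with no treatment or time point in the labels. SF3B1 is the splicing factor subunit that helps recognise the branch point of introns, and K700E, lysine to glutamate, is its most frequent substitution in myelodysplastic syndrome. The labels do not say how the mutation was introduced, whether it is on every allele, or whether the line is a single clone, and they do not say that the 3 libraries of a genotype came from separate cultures. The p-values below therefore measure the spread between these libraries, which may be technical.

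The mitochondrial ribosome translates the few membrane proteins of the respiratory chain that the mitochondrial genome encodes. Its RNAs come from the mitochondrial genome, while its proteins are made in the cytosol and imported. Some of these proteins have homologues in bacterial ribosomes, and others are specific to mitochondria. Messenger RNAs of cytosolic ribosomal proteins start with a C and a run of pyrimidines, the 5′ terminal oligopyrimidine tract, through which the kinase mTORC1 and the protein LARP1 control their translation and stability. Messenger RNAs of mitochondrial ribosomal proteins are short and nuclear in origin too, but as a class they lack this tract, so they serve here beside the cytosolic class.

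That difference is visible at the start sites. The windows below run from 10 bases before to 20 bases after the first base of the transcript, 5′ to 3′, in RefSeq on GRCh38.p14. Capitals mark the start base with any pyrimidine run that follows directly from a C there. RPS23, RPL14 and RPL9 are the cytosolic ribosomal protein genes with the smallest p between genotypes. MRPL1 and MRPL48 are members with large differences in opposite directions, and MRPL44, MRPL45 and MRPS27 are members in which the start does carry a tract.
RPS23: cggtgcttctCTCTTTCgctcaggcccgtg
RPL14: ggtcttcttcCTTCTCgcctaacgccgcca
RPL9: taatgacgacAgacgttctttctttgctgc
MRPL1: tttcgtgaacGcaatccggagtgcccaaca
MRPL48: gctgcacctgGtcaaggccgttccttcagt
MRPL44: ccatcgttttCTCTCgtgcaatggcgtccg
MRPL45: ttcccggcggCCTTTgcgggaacaagatgg
MRPS27: gttggctgttCCTTTTggtacgctccaaga
These windows lie on GRCh38.p14 at chr5:82278335-82278364 (RPS23, minus strand), chr3:40457329-40457358 (RPL14, plus), chr4:39458903-39458932 (RPL9, minus), chr4:77862820-77862849 (MRPL1, plus), chr11:73787864-73787893 (MRPL48, plus), chr2:223957453-223957482 (MRPL44, plus), chr17:38297158-38297187 (MRPL45, plus) and chr5:72320221-72320250 (MRPS27, minus).

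RefSeq windows were matched for 69 of the 78 members (85 windows, since some genes have more than 1 start). A C at the start base followed by at least 4 pyrimidines was found in 6 of 85 member windows (7.06%), in 46 of 77 windows of cytosolic ribosomal protein genes (59.7%) and in 4.07% of all 35116 windows. When the C was allowed up to 5 bases from the start, the counts were 17 of 85, 57 of 77 (74.0%) and 7408 of all windows (21.1%). Members thus carried the tract at about the share of all genes under either definition. The 6 members with a tract were MRPL44, MRPL45, MRPL53, MRPS2, MRPS27 and MRPS33.

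Depth was even between genotypes. The deposited values are TPM, a transcript abundance made of reads per base of gene length and scaled to the same total in each library, and the reads recovered from them came to 104.6 to 136.6 M reads per WT library and 111.6 to 126.5 M reads per K700E library. All 14 erythroid markers of K562 were above 10 TPM in every library. Of 17 markers of other blood, stromal and epithelial cells, 10 were under 1 TPM in every library, KRT5 was at 0 in all, and their summed level was 122 to 140 TPM in WT against 81.2 to 196 TPM in K700E; their part in the results was not tested. SF3B1 itself measured 144, 98.9 and 115 TPM in WT against 160, 136 and 118 TPM in K700E, and a gene's level does not show which allele it came from. Each genotype was deposited in a table of its own, so anything that differed between the authors' 2 processing runs cannot be told apart from genotype. In bulk libraries, fewer cells expressing a gene and less RNA per cell cannot be told apart either.

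No member differed between the genotypes at an adjusted p under 0.05. Differences are of log2(TPM + 1), K700E minus WT, tested with limma over the 15493 genes whose mean was 1 TPM or more. Of 78 members 77 passed that filter, and 0 were called higher and 0 lower, where 1.38% of all genes tested were called in either direction. That background itself rests on WT replicate 3: without it, 0 of all genes tested were called and 1492 had an unadjusted p under 0.05. At an unadjusted p under 0.05, 9 members were higher and 1 was lower, against 13% and 3.52% of all genes tested. With limma-voom on the recovered reads, 0 members were called, and 6 were higher and 1 lower at an unadjusted p under 0.05. In that fit 2414 of 15493 genes were at that p in either direction.

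As a class the members followed the median gene. Their median difference was 0.13, the same to 2 decimals as the 0.13 of all genes tested, and under median-ratio scaling both medians fell to about zero (members -0.002, all genes -0.001). On the log2(TPM + 1) scale 58 of 77 members had a positive difference, and relative to the median gene 42 lay above and 35 below. Members were also more narrowly spread than all genes tested, whose median level was lower (12.4 against 67.4 TPM). The middle of their distribution ran from 0.03 to 0.24, against -0.05 to 0.30 for all genes tested. Of 77 members 75 (97.4%) lay within 0.5 of the median gene, against 87.1% of all genes tested. This was not particular to the family. All 36 tested NDUF genes of respiratory complex I and all 29 tested genes for mitochondrial ribosome assembly and rRNA modification lay within 0.5. Of 76 cytosolic ribosomal protein genes 37 did. Groups did not overlap in 13 members that were higher and 1 that was lower in K700E, against 19% and 4.99% of all genes tested, so the share of members with separated groups (18.2%) was below the 24.0% of all genes. The 95% interval of the difference lay within 2-fold in both directions for 71 of the 77 members. The other 6 were MRPL16, MRPL1, MRPL12, MRPL41, MRPL38 and MRPL4.

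**Figure D1:**
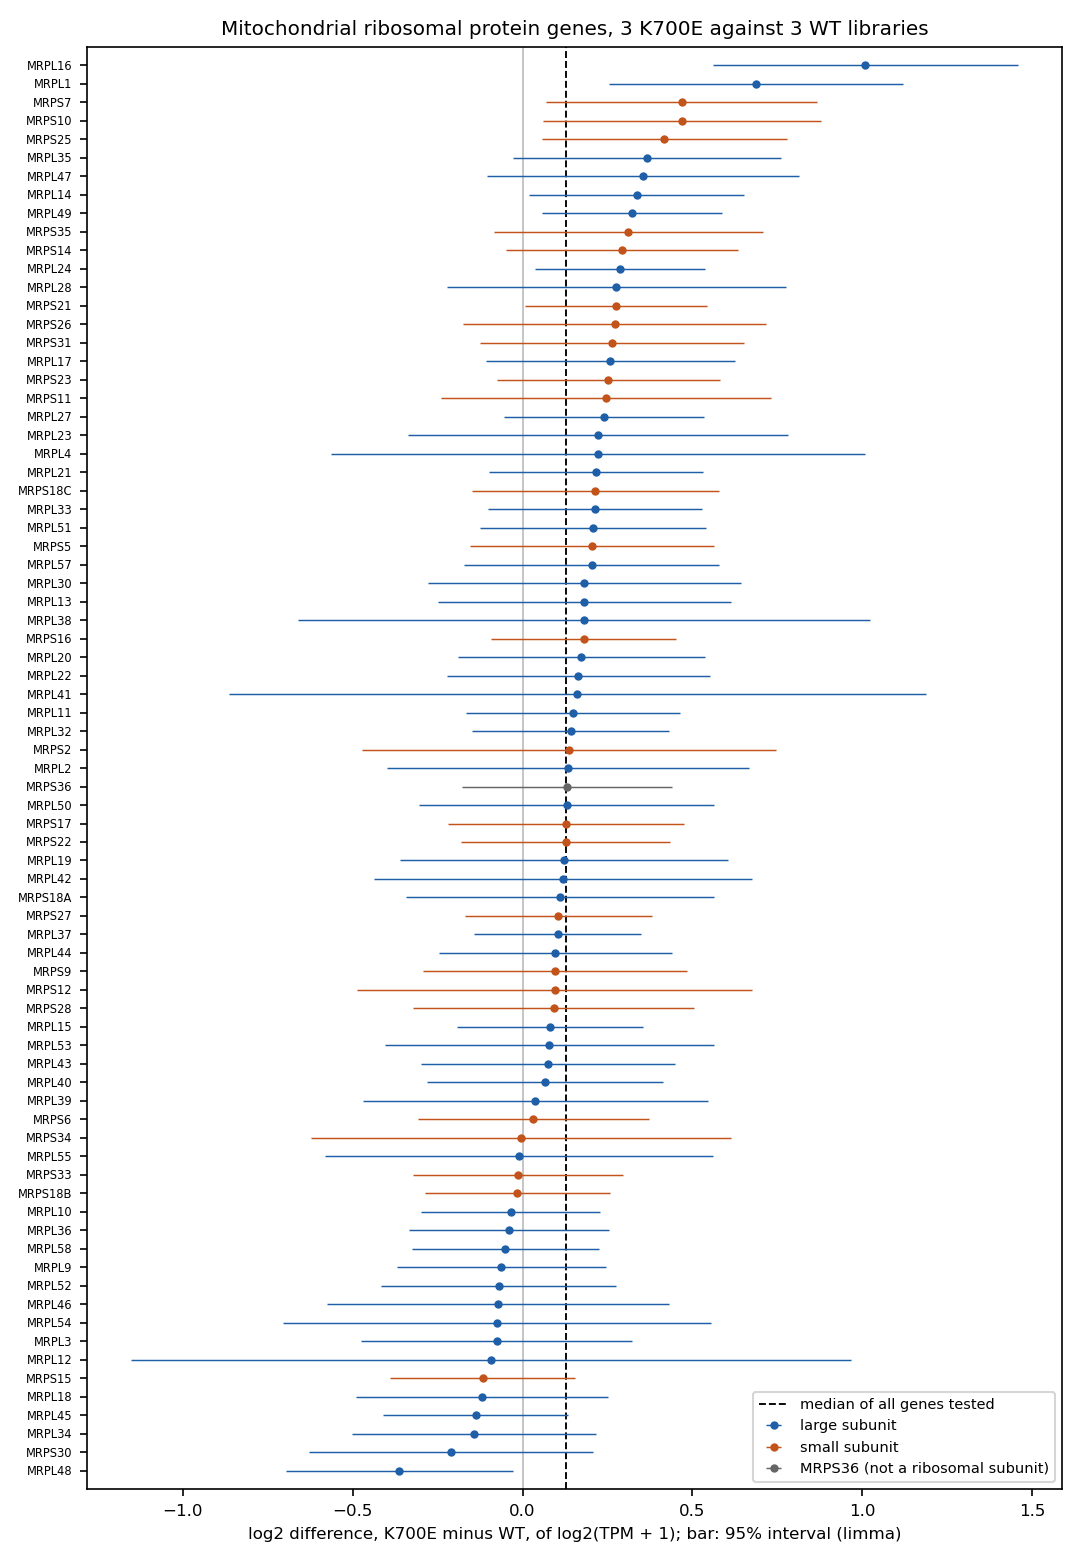
Difference of log2(TPM + 1), K700E minus WT (x axis), for the 77 tested members (y axis), with points for the limma estimate and bars for its 95% interval, coloured by ribosomal subunit. The dashed line is the median of all genes tested (0.13), and 75 of the 77 points lie within 0.5 of it; MRPL16 at 1.01 and MRPL1 at 0.69 lie farther out.

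MRPL16 had the largest difference. Its protein (uL16) sits in the large subunit next to the tRNAs at the peptidyl transferase centre. The gene (ENSG00000166902, chr11:59573613-59578251 on GRCh37, minus strand) measured 217, 191 and 199 TPM in WT against 317, 533 and 401 TPM in K700E. All 3 K700E libraries were above all 3 WT libraries, and they were also much less alike than the WT libraries (417 ± 109 against 202 ± 13.4 TPM, SD, n = 3). The difference of the means was 2.06-fold, or 1.01 on the log2(TPM + 1) scale (SE 0.19, limma adjusted p = 0.0599), which does not pass the threshold. Over the 19 alternative settings the difference was 0.82 to 1.19 and the adjusted p 0.0536 to 0.266. MRPL16 shares no exonic base with another gene, and the adjacent STX3, which ends 0.258 kb away on the other strand, measured 77.6 ± 15.95 TPM in WT against 89.3 ± 29.4 TPM in K700E with overlapping groups. In both genes K700E replicate 2 was the highest library. The differences of the other 3 nearest tested genes were 0.46 (ENSG00000254477), 0.74 (TCN1) and 0.51 (MS4A3), with SEs of 0.22, 1.12 and 0.71 in that order and overlapping groups in each.

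MRPL1 came next. It encodes uL1, the protein of the mobile stalk beside the tRNA exit site. The gene (ENSG00000169288, chr4:78783984-78873939 on GRCh37, plus strand) measured 38.6, 26.8 and 30.8 TPM in WT against 61.8, 49.3 and 45.3 TPM in K700E. The lowest K700E library was above the highest WT library, and replicate 1 was the highest in each genotype. The difference was 0.69 (SE 0.19, limma adjusted p = 0.133). After a correction for GC content, the difference was 0.55 with an adjusted p of 0.0310, which made MRPL1 the 1 member called under any setting, where 1.76% of all genes were called higher in that fit. With the same correction but without WT replicate 3 the adjusted p was 0.182, and over all alternatives it was 0.0310 to 0.442. The 4 nearest tested genes of MRPL1 had differences of 0.44 (CCNG2), 0.38 (CNOT6L), 0.33 (SERBP1P5) and 0.14 (ANXA3), and of these SERBP1P5 alone had separated groups.

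MRPL48 was the member with the most negative difference. Its protein, mL48, is one that bacteria lack and lies in the central protuberance of the large subunit. The gene (ENSG00000175581, chr11:73498919-73576178 on GRCh37, plus strand) measured 43.4, 50.7 and 45.6 TPM in WT against 32.1, 40.5 and 35.6 TPM in K700E. All K700E libraries were below all WT libraries. The difference was -0.36 (SE 0.14, limma adjusted p = 0.265), a K700E mean of 0.774 times the WT mean. Nearby, PAAF1, a proteasome assembly chaperone 11.6 kb beyond it, measured 21.7 ± 3.89 TPM in WT against 16.1 ± 0.492 TPM in K700E without overlap, while COA4, which lies between them and overlaps the start of PAAF1, measured 80.7 ± 11.3 and 98.4 ± 5.54 TPM. The neighbourhood of MRPL48 was thus not lower as a whole.

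**Figure D2:**
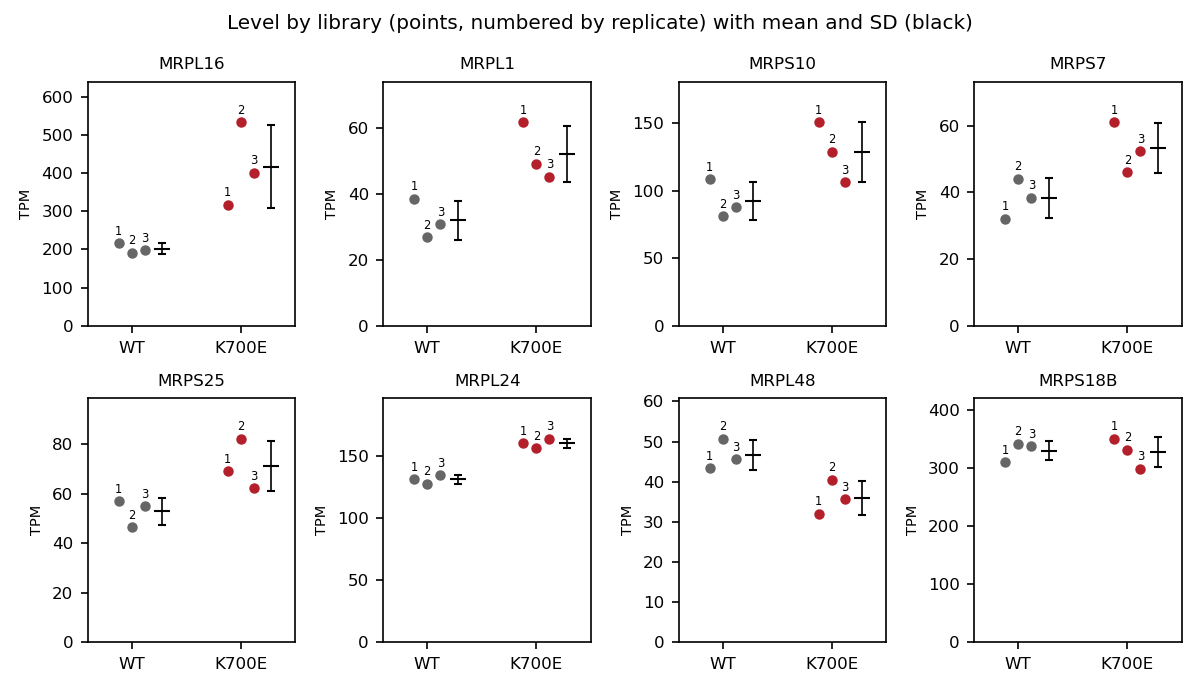
TPM of 8 members in each library (points numbered by replicate; WT grey, K700E red) with the group mean and SD in black. MRPL16, MRPL1, MRPS7, MRPS25 and MRPL24 have separated groups with K700E above, MRPL48 has K700E below, and the groups of MRPS10 and MRPS18B overlap.

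Within the large subunit, 51 members were tested, with a median difference of 0.13. The 28 members with a bacterial homologue had a median of 0.18, 19 of them above the median gene, and the 23 specific to mitochondria had a median of 0.08, with 7 above it. Beside MRPL16 and MRPL1, 3 members of the large subunit were at an unadjusted p under 0.05 and higher. MRPL49, a mitochondria-specific protein, measured 112, 111 and 116 TPM in WT against 148, 144 and 133 TPM in K700E (difference 0.32, adjusted p = 0.223). MRPL24 (uL24, whose bacterial homologue binds the large rRNA early in assembly) measured 132, 128 and 135 TPM against 161, 157 and 164 TPM (0.29, adjusted p = 0.246). MRPL14 (uL14, at the contact with the small subunit) measured 133, 165 and 153 TPM against 210, 178 and 182 TPM (0.34, adjusted p = 0.275). These 3 genes had separated groups with small differences, 1.22- to 1.26-fold between means.

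The following proteins at other functional sites of the large subunit had smaller differences than MRPL16 and MRPL1. MRPL12 (bL12), MRPL10 (uL10) and MRPL11 (uL11) form the stalk that recruits translation factors. MRPL10 measured 117, 130 and 130 TPM in WT against 123, 122 and 122 TPM in K700E, and MRPL11 measured 62.6, 70.5 and 69.6 TPM against 84.6, 72.3 and 68.5 TPM. Both overlapped between genotypes. MRPL3 (uL3), a core protein near the peptidyl transferase centre, measured 135 ± 18.0 TPM in WT against 129 ± 23.3 TPM in K700E. MRPL45, at the exit of the peptide tunnel where the ribosome meets the inner membrane, measured 116 ± 2.30 and 105 ± 7.55 TPM (difference -0.14, adjusted p = 0.603). MRPL44, with an RNase III fold, measured 39.3 ± 3.86 and 42.1 ± 4.91 TPM, and MRPL58, the peptidyl-tRNA hydrolase ICT1 built into the large subunit, 97.2 ± 1.68 and 93.9 ± 7.12 TPM. Of these genes none had separated groups.

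The small subunit, 25 members tested, had a median difference of 0.18, with 15 above the median gene. Its 15 members with a bacterial homologue had a median of 0.18 and its 10 mitochondria-specific members 0.19. MRPS7 (uS7, in the head of the subunit) measured 32.1, 44.1 and 38.4 TPM in WT against 61.0, 46.1 and 52.4 TPM in K700E, separated by a small gap (difference 0.47, SE 0.17, adjusted p = 0.237). MRPS10 (uS10) had as large a difference, but its groups overlapped: 109, 81.4 and 87.9 TPM against 151, 129 and 107 TPM (0.47, adjusted p = 0.246). MRPS25, a mitochondria-specific protein, measured 57.2, 46.7 and 55.1 TPM against 69.1, 82.3 and 62.5 TPM (0.42, adjusted p = 0.241). MRPS21 (bS21), picked after its values were seen because it completes the 9 members at an unadjusted p under 0.05, measured 132, 136 and 142 TPM against 178, 162 and 157 TPM (0.28, adjusted p = 0.292).

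Other small-subunit proteins with known roles were close to the median gene. MRPS12 (uS12), which shapes the decoding centre, measured 31.02 ± 10.1 TPM in WT against 32.0 ± 2.73 TPM in K700E. MRPS22 and MRPS34, both mutated in inherited defects of oxidative phosphorylation, measured 116 ± 8.91 and 127 ± 13.1 TPM, and 88.1 ± 31.5 and 83.8 ± 5.997 TPM. None of these 3 had separated groups. The 5 remaining members with separated groups, MRPL37, MRPS16, MRPL27, MRPS23 and MRPS14, are named for that alone after their values were seen. Among them MRPL27 measured 36.1, 36.2 and 36.1 TPM in WT against 47.2, 40.3 and 41.2 TPM in K700E, and MRPS16 measured 115, 115 and 115 TPM against 141, 130 and 121 TPM. Their WT libraries were almost identical, and neither passed an unadjusted p of 0.05 under the shared spread that limma fits.

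The symbol does not always give the subunit. MRPS18A, MRPS18B and MRPS18C are 3 proteins related to bacterial S18. MRPS18A is part of the large subunit, and the others are in the small subunit. MRPS18C was counted here as the bacterial homologue, and MRPS18A and MRPS18B with the mitochondria-specific members, as their systematic names (mL66 and mS40) class them. MRPS18B had the highest mean over all 6 libraries and in WT, while MRPL16 was higher in K700E (417 against 328 TPM). MRPS18B measured 311, 343 and 338 TPM in WT against 351, 332 and 300 TPM in K700E (difference -0.02, 95% interval -0.29 to 0.26). MRPS18A measured 67.4 ± 15.5 and 71.8 ± 7.99 TPM, and MRPS18C 18.6 ± 0.196 and 22.0 ± 3.596 TPM. MRPS30 (mL65), also in the large subunit, measured 93.9, 77.7 and 86.3 TPM in WT against 58.8, 89.9 and 76.4 TPM in K700E (difference -0.21), the second most negative value. K700E replicates 1 and 3 lay below the WT range and replicate 2 within it. MRPS36, a component of the alpha-ketoglutarate dehydrogenase complex and not of the ribosome, measured 59.9 ± 6.91 and 65.4 ± 2.36 TPM.

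Member levels spanned a wide range. The median member had a mean of 66.5 TPM over the 6 libraries, and the median of the 77 tested members (67.4 TPM) was above that of all genes tested (12.4 TPM). By the mean over all 6 libraries, MRPL18, MRPL40 and MRPS15 followed MRPS18B and MRPL16; in WT all 3 were above MRPL16, which was first in K700E. MRPL18 measured 282 ± 15.4 TPM in WT against 263 ± 53.2 TPM in K700E, MRPL40 264 ± 7.87 against 279 ± 49.8 TPM, and MRPS15 249.5 ± 15.8 against 230.0 ± 15.3 TPM. In WT the libraries of MRPL18 overlapped with those of MRPL40, and those of MRPL40 with those of MRPS15. None of the 3 genes had separated genotypes. The genes were compact, with a median length of 1626 bases (503 to 16007) against 2939 bases for all genes tested, and lay on 21 chromosomes.

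The lowest values went with shared exons. Of the 78 members, 44 shared no exonic base with another annotated gene and 34 shared some; a shared read can be left uncounted or given to the other gene, and how the K700E table treated such reads is not given in the sources used here. MRPS24, which shares 81.1% of its exonic bases with the read-through gene URGCP-MRPS24 on its strand, had 2 reads in WT replicate 2 and 0 in the other 5 libraries. It was therefore not measurable here. MRPL12 shares 69.5% with an overlapping gene model that is itself listed at 0, and had 5, 173 and 71 reads in WT and 23, 46 and 97 in K700E, or 0.114 to 2.97 TPM, so the stalk protein cannot be ranked against MRPL10 and MRPL11. MRPL46 (46.2% shared) had a mean of 1.90 TPM. On the opposite strand, MRPL53 shares 72.0% and had a mean of 5.22 TPM.

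Of 9 members under 10 TPM, 7 were among the 15 that share at least 25% of their exonic bases on either strand, and 2, MRPL42 and MRPS11, were among the other 63. The median level was 87.9 TPM for members that share none and 11.98 TPM for those 15. Sharing did not always go with a low level: MRPS6 (33.1% shared) had a mean of 169 TPM and MRPS18A (56.9%) 69.6 TPM. The difference between genotypes was similar in both classes, with a median of 0.16 for the 44 members that share none and 0.12 for the 33 tested members that share some. Of 79 rows named as pseudogenes of the family, 3 had a mean of at least 1 TPM, with a maximum of 3.51 TPM.

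**Figure D3:**
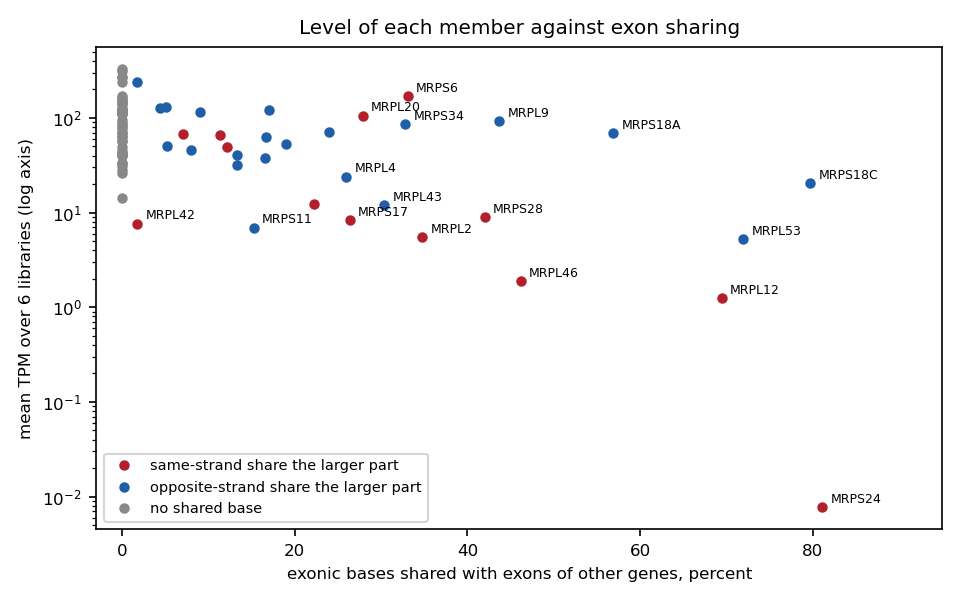
Mean TPM over the 6 libraries (y axis, log scale) against the percentage of each member's exonic bases that lie in exons of other genes (x axis), coloured by the strand that holds the larger shared part. The 44 members with no shared base are all at or above 14.2 TPM, and the lowest points (MRPS24, MRPL12 and MRPL46) share 46.2% or more.

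Summed over all 78 members, the family made up 0.622, 0.640 and 0.627% of all TPM in WT against 0.745, 0.691 and 0.665% in K700E. The sums, 6296 ± 93.0 TPM and 7004 ± 411 TPM, did not overlap, and their ratio was 1.11. Of the 708 TPM between them, MRPL16 alone accounted for 30.3%, and without it the ratio was 1.08. TPM has a fixed total, and the cytosolic ribosomal proteins took 19.5, 25.4 and 22.3% of it in WT and 16.7, 17.2 and 17.4% in K700E. Taken as a share of what those genes leave, the family had 0.773, 0.858 and 0.807% in WT and 0.895, 0.835 and 0.805% in K700E, a ratio of 1.04 with overlapping groups. The higher sum in TPM was thus not separated between genotypes once the cytosolic ribosomal proteins were left out of the total.

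Both subunits moved alike in these sums. The large subunit summed to 4049, 4241 and 4103 TPM in WT against 4917, 4568 and 4412 TPM in K700E. The small subunit summed to 2106, 2106 and 2105 TPM in WT against 2469, 2278 and 2173 TPM in K700E. The ratio of large to small was 1.92, 2.01 and 1.95 in WT and 1.99, 2.01 and 2.03 in K700E, so the groups overlapped. The WT sums of the small subunit differed by under 1 TPM although single members varied more between those libraries, as the differences by GC content given below show.

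Cytosolic ribosomal proteins gave a different distribution in the same fit. Of 77 such genes 76 were tested, with 0 called, 44 lower at an unadjusted p under 0.05 (3.52% of all genes tested) and 49 with separated groups, lower in K700E (4.99%). After GC correction 8 of them were called lower, where 218 of all 15129 genes in that fit were. With limma-voom 1 was called lower, where 42 of all 15493 genes were. With length correction 1 was called lower, where 46 of all 15493 genes were. Their median difference was -0.38, or -0.51 relative to the median gene, and 74 of 76 lay below that gene; the relative median was -0.37 to -0.62 over the settings that keep these genes. RPS23 measured 1253, 1328 and 1240 TPM in WT against 943, 898 and 903 TPM in K700E (difference -0.48, limma adjusted p = 0.0770), and RPL9 1249, 1329 and 1192 TPM against 851, 914 and 877 TPM (-0.51, adjusted p = 0.0701). The groups of both genes were far apart, yet neither passed the threshold. RPL9 has no tract at its RefSeq start, as its window above shows. The sum of the cytosolic class was 31.3, 39.7 and 35.6 times that of the mitochondrial class in WT and 22.4, 24.9 and 26.1 times in K700E, without overlap.

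**Figure D4:**
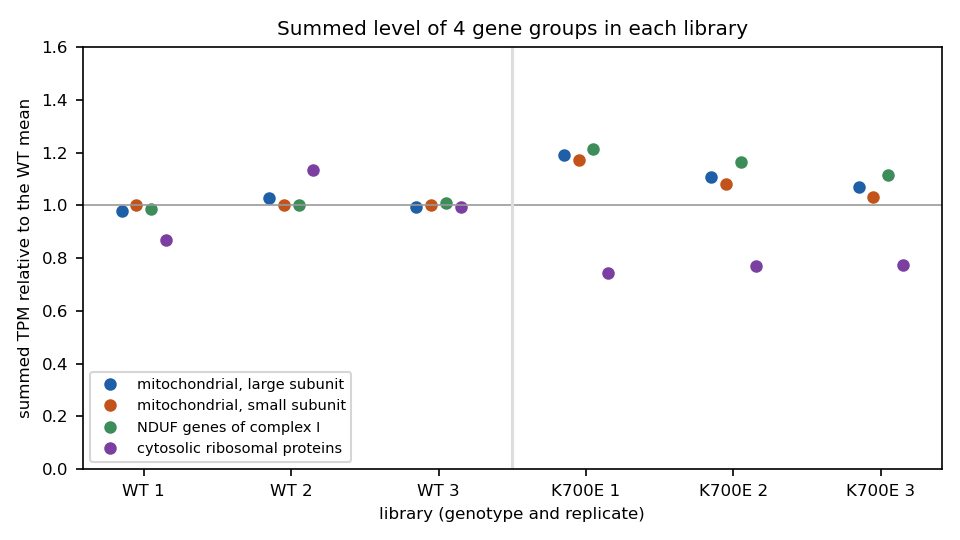
Summed TPM of the large and small mitochondrial subunits, the NDUF genes of complex I and the cytosolic ribosomal proteins in each library (x axis), divided by the mean of the 3 WT libraries (y axis, linear from 0). Both subunits (ratio of means 1.12 and 1.10 in TPM, 1.05 and 1.02 of the TPM outside cytosolic ribosomal proteins) and NDUF genes (1.16 in TPM, 1.09 outside that class) lie above 1 in all 3 K700E libraries, and the cytosolic class (0.763) lies below.

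No gene of the further lists of mitochondrial gene expression was called. The 5 subunits that carry other names had a median difference of 0.26. CHCHD1 (mS37) measured 65.0, 70.7 and 68.3 TPM in WT against 83.8, 85.0 and 75.2 TPM in K700E (0.25, adjusted p = 0.351), and PTCD3 (mS39), a pentatricopeptide protein at the messenger RNA entry, 53.0, 36.2 and 44.0 TPM against 57.8, 54.7 and 53.2 TPM (0.32, adjusted p = 0.377). Both had separated groups, higher in K700E, as had 19% of all genes tested, and the other 3 (DAP3, AURKAIP1, GADD45GIP1) overlapped. The groups of PTCD3 almost touched, with 53.2 TPM in the lowest K700E library and 53.0 TPM in the highest WT library. Of 29 tested genes for assembly and rRNA modification, 2 were higher at an unadjusted p under 0.05, where 13% of all genes tested were. Their median was 0.19. TRMT61B, which methylates the mitochondrial large rRNA, measured 14.4, 12.5 and 14.2 TPM against 18.4, 17.6 and 17.4 TPM (0.36, adjusted p = 0.246).

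For 17 tested translation factors the median was 0.13. Of these 1, MTRES1, was higher at an unadjusted p under 0.05, where 13% of all genes tested were. MTRES1 measured 16.7, 13.6 and 13.9 TPM in WT against 20.7, 19.2 and 20.2 TPM in K700E (0.42, limma adjusted p = 0.204). TUFM, the mitochondrial elongation factor Tu, measured 206, 317 and 293 TPM in WT against 371, 344 and 331 TPM in K700E (0.38, adjusted p = 0.338), with WT replicate 1 far below the other WT libraries. Among 12 tested regulators of mitochondrial genes, 4 were higher at that p, where 13% of all genes tested were, with a median of 0.31 (0.19 above the median gene). TFB2M, the factor that opens mitochondrial promoters, measured 64.9, 48.3 and 56.2 TPM against 93.7, 75.5 and 68.8 TPM (0.48, adjusted p = 0.229). The 36 tested NDUF genes of respiratory complex I had a median of 0.21, with 7 higher and 0 lower at an unadjusted p under 0.05 (13% and 3.52% of all genes tested), and summed to 4539, 4605 and 4643 TPM in WT against 5580, 5347 and 5124 TPM in K700E. Their sum was separated between genotypes, with a ratio of 1.16, or 1.09 as a share of the TPM outside cytosolic ribosomal proteins.

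Libraries of the same genotype differed by the GC content of the gene. For the 26 members with the highest GC content (52.2 to 71.9%), WT replicate 2 was above WT replicate 1 in 25, by a median of 0.69 in log2(TPM + 1). For the 26 with the lowest (33.5 to 43.8%), it was above in 3, with a median of -0.39. Across the 77 tested members, which come from the same pair of libraries, Pearson's r between GC content and that difference was 0.83, and between GC content and the K700E minus WT difference -0.07. WT replicate 3 lay between the others in 65 of 77 members (84.4%, against 75.9% of all genes tested). MRPL41 and MRPL38, chosen after their values were seen, are wide examples. WT libraries of MRPL41 had 16.3, 63.0 and 43.4 TPM against 35.0, 37.6 and 48.4 TPM for K700E. MRPL38 had 32.6, 97.1 and 68.5 TPM in WT against 61.6, 66.0 and 78.5 TPM in K700E. The highest WT value was more than 1.5 times the lowest in 22 tested members, and the same held in K700E for 6. After a correction for GC content in each library, 1 member was called higher and 0 lower. Beyond that fit, the part of this spread in the results was not tested.

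**Figure D5:**
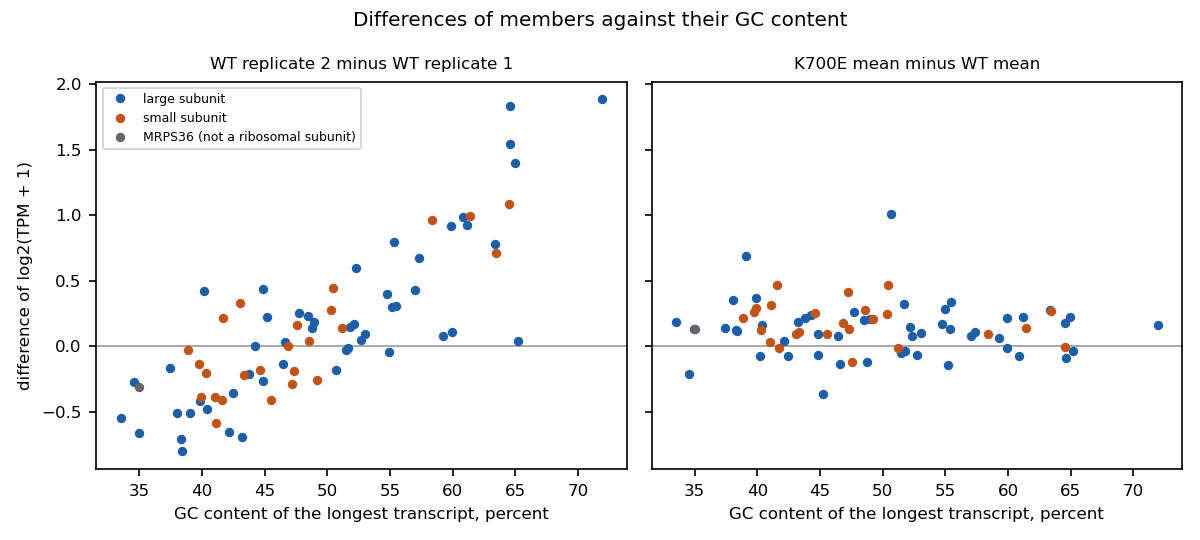
Difference of log2(TPM + 1) between WT replicates 2 and 1 (left) and between the genotype means (right) on the y axes, against the GC content of each member's longest transcript in percent (x axes), coloured by subunit. Points climb with GC content on the left (r = 0.83, n = 77 genes) and form a level band on the right (r = -0.07).

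Promoter windows of members, from 250 bases before to 50 bases after the start in RefSeq on GRCh38.p14, were searched on both strands for 3 motifs known from mitochondrial genes. The ETS motif CCGGAAGT, read by GABP (NRF2), was in 16.5% of 85 member windows, 12.99% of cytosolic ribosomal protein windows and 4.14% of all windows. The YY1 motif AAGATGGCG was in 15.3%, 6.49% and 1.75%, and a palindromic NRF1 motif of 10 bases in 1 of 85 member windows and 1.24% of all windows. The examples below, shown because they lie near the start in members described above, have the motif in capitals.
MRPL3: gtaaaacgcaCCGGAAGTgggtccggcggc
MRPS10: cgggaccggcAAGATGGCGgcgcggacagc
MRPL46: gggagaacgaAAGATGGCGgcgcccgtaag
They lie on the minus strand at chr3:131502984-131503013, chr6:42217833-42217862 and chr15:88467361-88467390. The median difference between genotypes was 0.13 in the 23 tested members with any of the motifs and 0.15 in the 45 without. It was 0.09 in the 6 members with a pyrimidine tract at the start and 0.15 in the 62 without. A match describes these letters alone and does not show that a factor binds there.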

How the data were processed

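RNA of K562 cells was taken up on magnetic beads and made into mRNA libraries, per the labels' protocols. The authors deposited TPM per gene, a table per genotype. Per the submitters' processing notes, cutadapt 2.10, TopHat2 2.1, featureCounts 2.0.1, DESeq2 and GRCh37 (hg19) were used; per the file headers, WT columns have names of the kind STAR gives. For the K700E table, aligner and strand setting are not given. TPM times gene length gave whole reads for 100% of values within 0.01 in every library. Of 62111 gene IDs, 58604 (94.4%) matched a symbol.

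Groups followed the genotype labels. The test, on genes whose mean was 1 TPM or more, used log2(TPM + 1) and limma 3.58.1 (R 4.3.3; empirical Bayes with trend, genotype alone, two-sided, Benjamini-Hochberg over all genes, threshold 0.05); a fold on this scale understates the change of low genes. Tables were summarised with pandas 2.3.3 in Python 3.11.15. The fit was tested on simulated data. An exact permutation test of 3 libraries against 3 cannot go below p = 0.1. Alternatives covered pseudocount, filter, scaling, trend, limma-voom, GC content, gene length, a replicate block and leaving out each library. GC content, known for 97.7% of tested genes and all 78 members, came from a later annotation joined by gene ID. Named genes were SF3B1, the 8 smallest p and 4 largest differences in each direction, the 5 highest and 3 lowest levels, a set of members with known roles, and up to 3 genes of each other list. Members, lists and settings were chosen with earlier results of these data known. RefSeq sequences were matched by symbol. The start-site sequence of MRPL16 is not reported here.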

Additional observations from a re-analysis of the deposited data

How the results depend on the processing

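Under all 19 alternatives 0 members were called lower and, except for the GC correction (1 higher, MRPL1; 0 when WT replicate 3 was also left out), 0 higher. The members' median relative to all genes, 0.0051, was 0.101 with no filter, where many genes near 0 set the median of all genes, and -0.0075 to 0.0647 leaving out a library. Calls over all genes were 178 higher and 36 lower, 0 and 0 without WT replicate 3 or with no filter, 267 and 218 after GC correction, 119 and 41 with median-ratio scaling. Members at an unadjusted p under 0.05 were 9 higher and 1 lower (2563 of all 15493 genes in either direction). With median-ratio scaling they were 2 and 2 (2253 of all 15493 genes). After GC correction they were 4 higher and 6 lower (3276 of all 15129 genes). The family's ratio of sums, 1.11, was 1.04 of the TPM outside cytosolic ribosomal proteins. Replicate numbers did not pair the libraries (r of same-numbered deviations 0.281, -0.192 and 0.299); with the replicate block 0 members were called and 59 genes higher and 8 lower in all. Of 31 named members, 18 kept their direction throughout and 13 did not; the cause was not tested. MRPL40 was -0.0783 with median-ratio scaling, -0.0305 rescaled without cytosolic ribosomal protein genes, -0.0618 after GC correction, -0.0786 after length correction and -0.132 after GC correction without WT replicate 3. In that order MRPL53 was -0.0424, -0.0024, -0.0775, -0.0422 and -0.0521. With median-ratio scaling, GC correction, length correction and the GC correction without WT replicate 3, MRPL44 was -0.0443, -0.0488, -0.0477 and -0.0652, MRPS12 -0.0450, -0.0405, -0.0493 and -0.0062, MRPS22 -0.0164, -0.0087, -0.0176 and -0.0261, and MRPS18A -0.0313, -0.0312, -0.0297 and -0.0486. MRPL11 was -0.0088 and -0.0080 in both GC fits, MRPL12 0.144 with a pseudocount of 0.1 and 0.185 with limma-voom, and MRPS18B 0.0030 and MRPS34 0.0128 among protein-coding nuclear genes alone. Leaving out a library gave -0.0944 to 0.205 for MRPL53, -0.214 to 0.0376 for MRPL3, -0.189 to 0.291 for MRPS12, -0.0726 to 0.264 for MRPS18A, -0.171 to 0.0466 for MRPL52, -0.0668 to 0.0474 for MRPS18B, -0.242 to 0.0945 for MRPL46, -0.316 to 0.229 for MRPS34, -0.0714 to 0.175 for MRPL40 and -0.563 to 0.112 for MRPL12. Counting error is large for MRPS24 (2 reads over 6 libraries). MRPL12 had 415 reads over 6 libraries, with 5, 173 and 71 in WT. Both its counting error and its spread between libraries are large. For abundant members the spread between 3 libraries a genotype sets the precision.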
